A study of Mus musculus with 6 samples.

Results

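The 251 genes described here are the expressed neighbours of Plekhg5 on the distal end of mouse chromosome 4. Every gene of the deposited tables whose locus starts at position 142072498 of chromosome 4 (GRCm38) or beyond, up to the chromosome end, was taken, except Plekhg5 itself, when its mean reached 0.1 FPKM over the 3 wild-type or over the 3 Plekhg5-deficient libraries. FPKM count fragments per kilobase of a transcript, relative to all mapped fragments. The tables list 428 genes of the region, and 251 reached the limit, out of 21285 of the 39174 genes of the whole series. Of the 177 others, 117 were listed at 0 in every library. Members were thus selected on their FPKM in the higher genotype, and 208 of them were at or above 0.1 FPKM in both genotypes, whereas 19 were below it in wild-type and 24 in Plekhg5-deficient nerves. Just inside the limit were Gm13064, 1700121F15Rik and Trp73, at 0.102, 0.105 and 0.106 FPKM in their higher genotype, and just outside were Gm13158, Gm13228 and Gm23303, at 0.0992, 0.0950 and 0.0938 FPKM. At the border of the region, Tmem51os1 was inside and Tmem51 was outside.

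The libraries were made from whole sciatic nerves of mice labelled wildtype and mice labelled Plekhg5-/-, with 3 animals per genotype, numbered 2, 4 and 5 and 2, 3 and 5. The labels call the animals adult. The sources used here name neither the strain background nor the way the allele was made, and no treatment was applied. Total RNA was turned into libraries with a poly(A)-selecting kit. In whole nerve, fewer cells of a type and less RNA per cell cannot be told apart. All 10 listed Schwann cell markers were present, with a summed level of 10861 to 19560 FPKM in wild-type and 11224 to 19193 FPKM in Plekhg5-deficient nerves. Single libraries stood apart in other cell types. T-cell markers summed to 158 FPKM in wild-type nerve 5 and to 3.26 to 11.9 FPKM elsewhere, while erythroid markers summed to 230151 FPKM and skeletal muscle markers to 51388 FPKM in Plekhg5-deficient nerve 5. Of the members, 63 were highest in wild-type nerve 5 and 63 in Plekhg5-deficient nerve 5, against 22 to 40 in each other library.

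Plekhg5 encodes a guanine nucleotide exchange factor, a type of protein that switches on small G proteins. The genes around it differ widely in role. They include scattered receptors of the tumor necrosis factor family, enzymes of sugar and lipid metabolism, matrix proteins of nerve and connective tissue, and an array of zinc finger genes that grew by repeated duplication. Zinc finger proteins of this kind bind DNA and commonly repress transcription, often of mobile elements, and their copies are alike enough for short reads to match more than 1 of them. Genes that lie close together on a chromosome are usually inherited together, which is why the size of a difference was described here against the distance from Plekhg5.

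The stretches around the transcription starts (250 bases before to 50 bases after, RefSeq, GRCm38.p6) are shown for 5 members to which the results below return. The first is Tnfrsf25 (chr4:152115684-152115983, plus strand), shown because it begins 533 bases after the end of Plekhg5 on the same strand, so that the lower-case part lies between both genes. Its capitals mark the bases from the RefSeq start on.
Tnfrsf25: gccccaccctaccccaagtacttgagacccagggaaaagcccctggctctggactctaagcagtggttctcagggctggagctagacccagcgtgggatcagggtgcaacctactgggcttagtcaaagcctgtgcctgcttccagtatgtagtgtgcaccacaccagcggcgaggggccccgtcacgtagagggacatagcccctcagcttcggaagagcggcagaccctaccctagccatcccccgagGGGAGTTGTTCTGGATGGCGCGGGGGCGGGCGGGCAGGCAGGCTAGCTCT

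The next are 2 zinc finger genes, which had the lowest log2 fold changes of all members. Gm13157, now named Zfp984, starts within chr4:147809739-147810038 on the minus strand, and Gm13152, now named Zfp982, within chr4:147492167-147492466 on the plus strand. The capitals mark the longest run of bases that both share, which was 21 bases long.
Gm13157: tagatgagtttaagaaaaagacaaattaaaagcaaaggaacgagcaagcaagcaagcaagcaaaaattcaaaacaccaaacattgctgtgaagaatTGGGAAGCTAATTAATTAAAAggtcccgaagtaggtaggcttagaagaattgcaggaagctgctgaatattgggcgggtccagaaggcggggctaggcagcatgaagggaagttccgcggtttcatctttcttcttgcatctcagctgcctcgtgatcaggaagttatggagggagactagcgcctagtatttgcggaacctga
Gm13152: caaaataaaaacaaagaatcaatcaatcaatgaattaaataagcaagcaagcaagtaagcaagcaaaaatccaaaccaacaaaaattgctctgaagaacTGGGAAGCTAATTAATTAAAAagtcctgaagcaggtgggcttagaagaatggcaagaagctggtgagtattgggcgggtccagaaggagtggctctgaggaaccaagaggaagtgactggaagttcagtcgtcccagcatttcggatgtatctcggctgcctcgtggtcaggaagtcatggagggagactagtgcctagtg

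The last are Pramel4 (chr4:144058875-144059174, plus strand) and Gm13102 (chr4:144099630-144099929, plus strand), a pair of neighbours from the PRAME family, shown because their transcripts are nearly the same. Their longest common run, in capitals, was 93 bases. The RefSeq start of Gm13102 lies 6594 bases from the start of its locus in the deposited tables.
Pramel4: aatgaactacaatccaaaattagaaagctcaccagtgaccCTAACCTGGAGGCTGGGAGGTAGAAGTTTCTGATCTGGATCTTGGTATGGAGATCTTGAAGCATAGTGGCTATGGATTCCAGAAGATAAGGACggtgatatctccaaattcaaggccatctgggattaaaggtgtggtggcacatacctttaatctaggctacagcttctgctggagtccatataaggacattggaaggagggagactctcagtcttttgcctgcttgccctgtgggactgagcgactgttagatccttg
Gm13102: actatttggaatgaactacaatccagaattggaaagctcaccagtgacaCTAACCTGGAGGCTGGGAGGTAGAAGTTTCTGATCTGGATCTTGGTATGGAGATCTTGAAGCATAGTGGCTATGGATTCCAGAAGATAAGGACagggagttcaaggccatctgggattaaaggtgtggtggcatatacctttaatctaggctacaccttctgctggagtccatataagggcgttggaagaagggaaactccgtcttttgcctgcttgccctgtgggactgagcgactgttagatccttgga

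Of the members, 141 had a RefSeq entry of this kind, counted by present or older symbol. The letters GGGCGG, read on either strand, occurred in 63.8% of these 141 stretches and in 35.7% of all 32851 RefSeq stretches of the same length, among them those of Tnfrsf25, Zfp984 and Zfp982. CCAAT occurred in 38.3% and 37.4%, among them those of Zfp984, Zfp982, Pramel4 and Gm13102. The members had to be expressed in nerve and the genes of the reference did not, so these shares describe different kinds of lists.

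The differences between genotypes were examined first over the whole stretch. Plekhg5 itself was measured at 3.65, 4.13 and 5.26 FPKM in wild-type and at 0.141, 0.140 and 0.0521 FPKM in Plekhg5-/- nerves. With limma's adjusted p under 0.05 as threshold, 0 members were called lower and 0 higher, against 0.0094% and 0.0282% of all genes tested. For a single gene, 3 animals per genotype allow no exact permutation p (two-sided) below 0.1. At an unadjusted p under 0.05 from limma, 12 members (4.78%) were lower and 11 (4.38%) higher in Plekhg5-deficient nerves, together 9.16%, against 2.69%, 2.41% and together 5.11% of all genes tested. In 20 members (7.97%) every Plekhg5-deficient library was below every wild-type library, and in 24 (9.56%) every one was above, against 5.88% and 5.69% of all genes. Of these, 8 and 8 were below 0.1 FPKM in the lower genotype, so that their direction was fixed when they were chosen as members. Intervals of 95% that Cufflinks reported were apart in all pairs of libraries for 4 lower and 5 higher members, against 0.578% and 0.564% of all genes. A log2 fold change beyond 1 in either direction was seen in 3.59% of the members and in 1.81% of all genes.

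In median size, the members were close to the rest of the genome. The median absolute log2 fold change was 0.18 over the 251 members, 0.17 over 1251 other genes of chromosome 4 and 0.17 over 19782 genes of other chromosomes. The 90th percentile was higher among the members, at 0.61, against 0.50 and 0.48, but the most extreme values lay in the 2 larger sets. The members ranged from -1.36 to 3.11. The other genes of chromosome 4 ranged from -2.03 to 4.44, and those of other chromosomes from -2.97 to 5.62. Log2 fold changes (log2FC) are of FPKM + 1, which understates the change of low genes, and the median standard error of a member was 0.21. In sign, 142 members (56.6%) had a log2FC below 0 and 109 (43.4%) above, against 48.9% and 51.1% of all genes. Of the 23 members at an unadjusted p under 0.05, 6 were below 0.1 FPKM in 1 genotype, 6 lay between Vps13d and Clcn6, and 11 had no stretch of read length in common with the annotated transcripts of another gene.

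**Figure D1:**
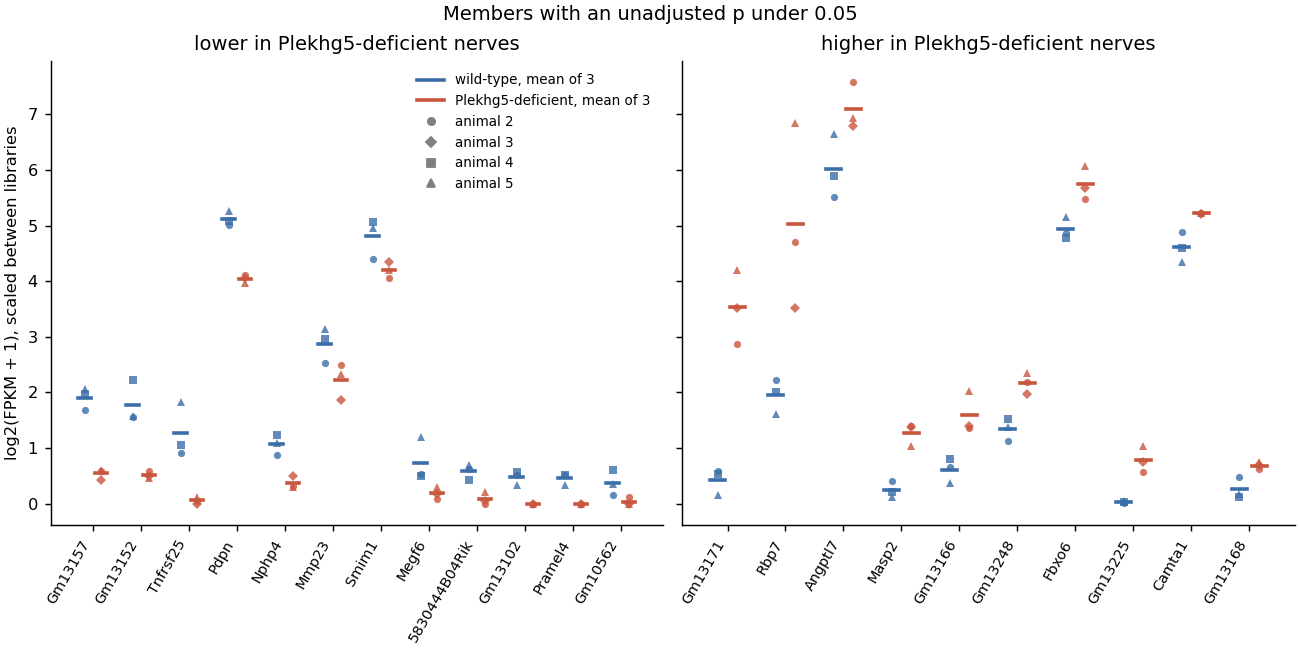
Levels of 22 of the 23 members with an unadjusted p under 0.05, as log2(FPKM + 1) scaled between libraries, in 3 wild-type and 3 Plekhg5-deficient nerves, with 12 lower members on the left and 10 higher members on the right. Symbols stand for libraries and bars for genotype means; Rbp7 spreads most widely between its Plekhg5-deficient libraries, and Camta1 shows nearly the same level in all 3.

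The size of the difference showed little relation to the distance from Plekhg5. Across genes, Spearman's rank correlation between the absolute log2 fold change and the distance was -0.03 over all 251 members, 0.0036 over the 157 members on the centromeric side and -0.14 over the 94 on the telomeric side. These are descriptions across genes that share the same 6 libraries and are not independent. With the mean FPKM, the rank correlation was 0.18. The sides differed in sign. On the telomeric side 63 members were below 0 and 31 above, with 7 lower members and 1 higher member at an unadjusted p under 0.05, whereas on the centromeric side 79 were below and 78 above, with 5 lower and 10 higher. These were 7.45% and 1.06% of the telomeric and 3.18% and 6.37% of the centromeric members, against 2.69% and 2.41% of all genes. The difference between the sides was not tested.

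**Figure D2:**
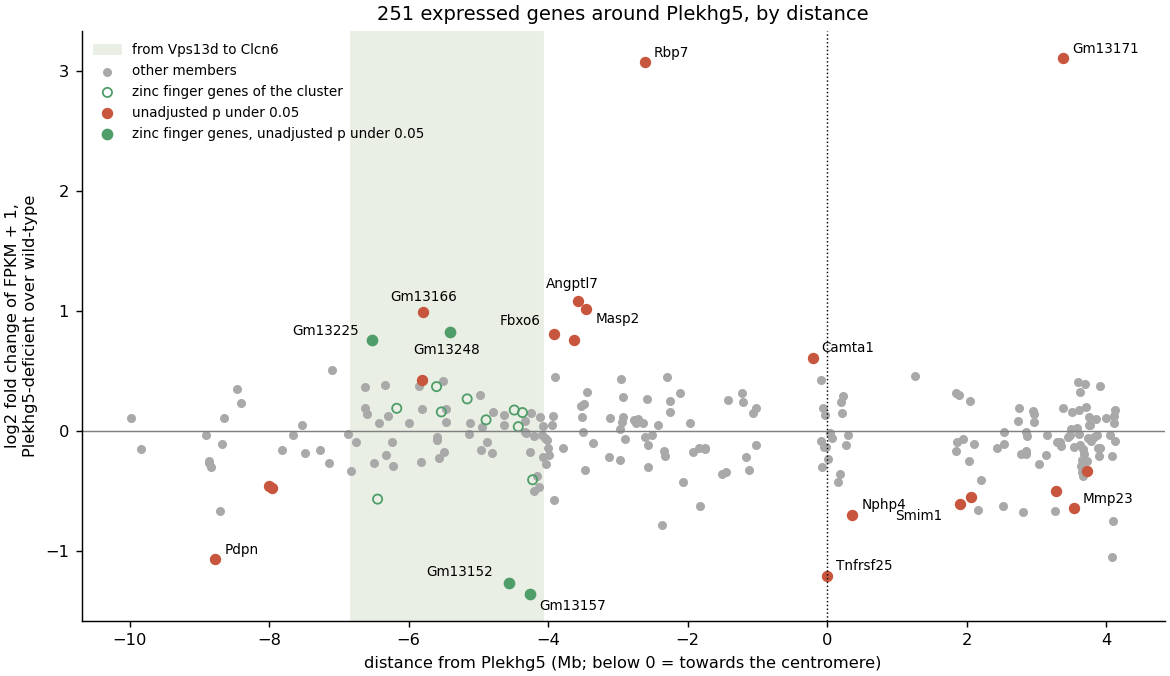
Log2 fold change of FPKM + 1 (Plekhg5-deficient over wild-type) of the 251 members against the distance from Plekhg5 in Mb, with Plekhg5 at the dotted line and the stretch from Vps13d to Clcn6 shaded. Members at an unadjusted p under 0.05 are filled in red or, for zinc finger genes, in green, and they occur near the dotted line as well as towards both ends.

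In steps of 1 Mb, members at an unadjusted p under 0.05 were most frequent between 3 and 4 Mb on the centromeric side. They made up 21.1% of the 19 members there, against 5.11% of all genes. Angptl7, Fbxo6 and Masp2 were among them, and all at this threshold were higher. Between 8 and 9 Mb on the same side, 2 of 11 members (18.2%) were lower at this threshold, Pdpn and Pramel4. Pramel4 was a member through its wild-type level alone, so that it could only be lower. Between 5 and 6 Mb, 7 of 18 members were higher without overlap, against 5.69% of all genes, but 3 of the 7 were below 0.1 FPKM in wild-type nerves and could only be higher. On the telomeric side the step from 3 to 4 Mb held the most members, 46. Of these, 3 were lower and 1 was higher at an unadjusted p under 0.05, together 8.7%.

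Some other parts of the chromosome reached the same frequencies, but its other genes as a set did not. Of the 1251 other genes of chromosome 4, 6% were at an unadjusted p under 0.05, against 9.16% of the members. Without overlap were 13.3% against 17.5%, and 1.68% against 3.59% had a log2 fold change beyond 1 in either direction. These differences were not tested. In steps of 10 Mb along chromosome 4, the share of genes at an unadjusted p under 0.05 was 9.49% for the 10 Mb on the centromeric side of Plekhg5 (158 genes, the 157 members and 1 gene at the border) and 8.51% on the telomeric side. It was 10.5% of 162 genes between 20 and 30 Mb away and 10.6% of 66 genes between 50 and 60 Mb away, and 0% from 110 to 120 and from 130 to 140 Mb away. The median absolute log2 fold change lay between 0.15 and 0.20 in every step.

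**Figure D3:**
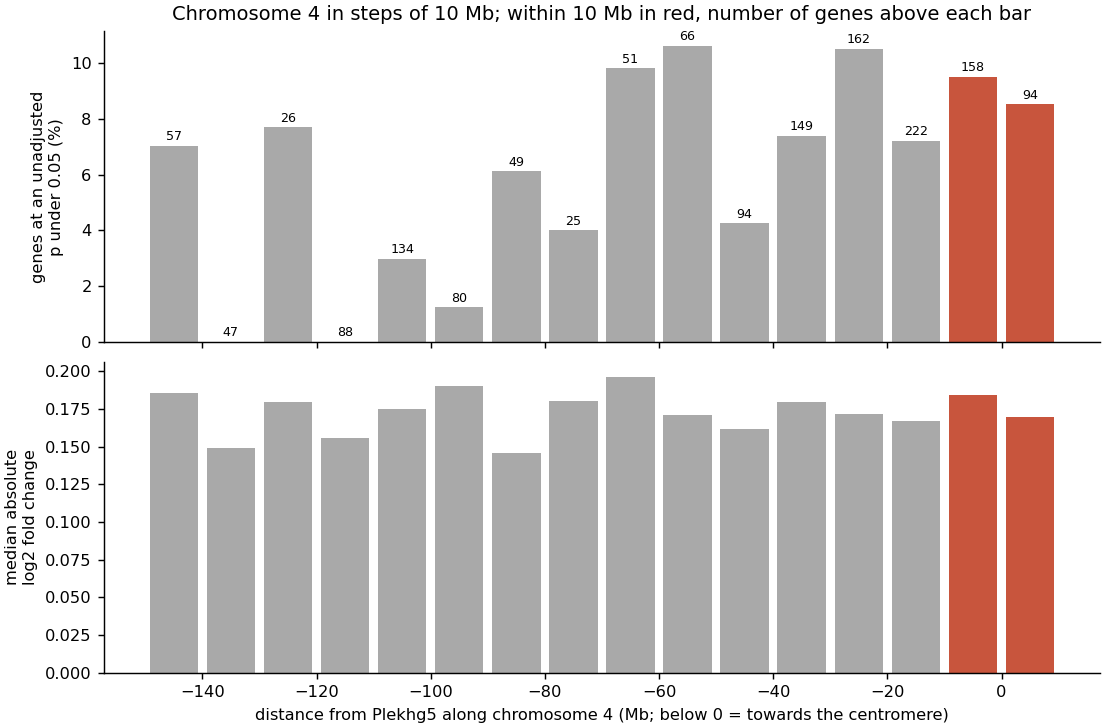
Chromosome 4 in steps of 10 Mb by distance from Plekhg5, with the share of genes at an unadjusted p under 0.05 (upper bars, %, number of genes above each) and the median absolute log2 fold change (lower bars). The steps within 10 Mb of Plekhg5 are red, with 9.49% and 8.51% above, and the grey steps reach from 0% to 10.6%.

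The 20 members within 0.5 Mb of Plekhg5 mostly overlapped between genotypes. There were no further members within 1 Mb, and the 20 had a median log2FC of -0.07. At an unadjusted p under 0.05 there were 2 lower genes and 1 higher gene among them, against 2.69% and 2.41% of all genes. Without overlap there were 2 and 2, against 5.88% and 5.69% of all genes. Of these, Tnfrsf25 and Tas1r1 were below 0.1 FPKM in their lower genotype, so that their direction was fixed when they were chosen. The genes directly before Plekhg5 were at low levels. Nol9, a nucleolar kinase of ribosomal RNA processing that ends 0.011 Mb before Plekhg5, had 2.56 ± 0.487 FPKM in wild-type and 2.22 ± 0.248 in Plekhg5-deficient nerves (SD, n = 3 each). The transcription factor gene Zbtb48 had 3.72 ± 0.649 and 3.33 ± 0.852 FPKM (SD, n = 3 each). Tas1r1, a taste receptor, had 0.0499, 0 and 0.0652 FPKM in wild-type and 0.138, 0.0769 and 0.203 FPKM in Plekhg5-deficient nerves, without overlap. It was below 0.1 FPKM in wild-type nerves and was a member through its Plekhg5-deficient level alone. It could thus only be higher.

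Tnfrsf25, the next gene after Plekhg5, was the neighbour that differed most. Tnfrsf25 encodes a death receptor found mainly on lymphocytes. In wild-type nerves 2, 4 and 5 it had 0.877, 1.08 and 2.57 FPKM, and in Plekhg5-deficient nerves 2, 3 and 5 it had 0.0352, 0 and 0.0907 FPKM. The genotypes did not overlap, and the log2FC was -1.21 ± 0.25 (SE, limma adjusted p = 0.529). Tnfrsf25 was below 0.1 FPKM in Plekhg5-deficient nerves and was a member through its wild-type level alone, so that it could only be lower. None of its read-length stretches occurred in another annotated gene. Espn, which encodes an actin-bundling protein and comes next, overlapped between genotypes, at 0.263, 0.273 and 1.08 FPKM against 0.0857, 0.167 and 0.628 FPKM.

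Camta1 and Nphp4 flank the group. Camta1, a calmodulin-binding transcription activator expressed in neurons, lies 0.211 Mb from Plekhg5 on the centromeric side, had 28.4, 23.1 and 19.4 FPKM in wild-type against 36.2, 36.2 and 36.3 FPKM in Plekhg5-deficient nerves, and was 1.53-fold higher there (log2FC 0.61 ± 0.18 SE, limma adjusted p = 0.798). Its locus overlaps those of 7 other listed genes, and no source used here says which strand was counted. Nphp4, a protein of the ciliary transition zone, lies 0.361 Mb away on the telomeric side. It had 0.832, 1.34 and 1.14 FPKM in wild-type and 0.247, 0.405 and 0.228 FPKM in Plekhg5-deficient nerves. No library of one genotype reached the other, with a log2FC of -0.70 ± 0.15 (SE, limma adjusted p = 0.540). Its start overlaps the locus of Kcnab2.

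**Figure D4:**
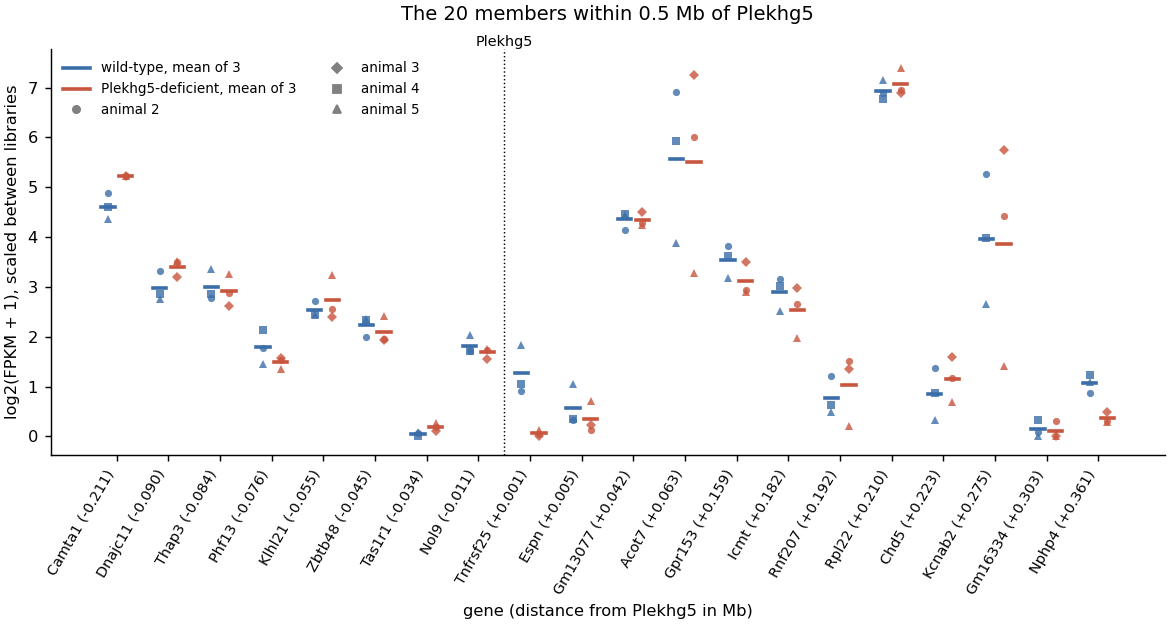
Levels of the 20 members within 0.5 Mb of Plekhg5 as log2(FPKM + 1), in order along the chromosome, with the distance in Mb after each symbol and Plekhg5 at the dotted line. Symbols stand for libraries and bars for genotype means. Tnfrsf25, Nphp4, Camta1 and Tas1r1 do not overlap between genotypes, and Acot7 and Kcnab2 spread most within each genotype. Tnfrsf25 and Tas1r1 were members through 1 genotype alone, which fixed their direction.

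Several members near Plekhg5 varied more between animals than between genotypes. Acot7, an acyl-CoA thioesterase abundant in neurons, had 119, 59.8 and 13.7 FPKM in the wild-type libraries 2, 4 and 5, against 63.6, 152 and 8.68 FPKM in the Plekhg5-deficient libraries 2, 3 and 5. Kcnab2, a potassium channel subunit, had 37.4, 14.8 and 5.33 FPKM in wild-type and 20.5, 52.3 and 1.65 FPKM in Plekhg5-deficient nerves. In both genes Plekhg5-deficient nerve 3 was highest and nerve 5 lowest. Slc45a1, a sugar transporter of the brain, and Fbxo2, a ubiquitin ligase subunit of neurons, were also highest in that nerve 3, at 7.10 and 25.7 FPKM, and lowest in that nerve 5, at 0.0215 and 1.69 FPKM. Snap25, a synaptic gene of chromosome 2, had 121, 59.5 and 10.3 FPKM in wild-type and 55.04, 219 and 4.39 FPKM in Plekhg5-deficient nerves. In each of these genes, chosen after their values were seen, Plekhg5-deficient nerve 3 was highest and nerve 5 lowest, and what they share was not tested.

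The array of zinc finger genes held the lowest and some of the higher log2 fold changes. From Tnfrsf1b to Gm13054, between the genes Vps13d and Clcn6, the chromosome carries 62 members, from 4.07 to 6.83 Mb away, of which 14 are zinc finger genes and most others are pseudogenes. The 14 comprise those now named Zfp together with Gm13212 and Gm21411, and each had read-length stretches in common with another gene. At an unadjusted p under 0.05, 2 of the 14 were lower and 2 higher, against 2.69% and 2.41% of all genes. Without overlap, 2 were lower and 6 higher, against 5.88% and 5.69% of all genes. Of the 6, 4 were below 0.1 FPKM in wild-type nerves and were members through their Plekhg5-deficient level alone, so that they could only be higher. The median log2 fold change was 0.16 over the 14, with an absolute median of 0.32, and 0.01 over the 48 other members of the stretch. Over 343 genes named Zfp elsewhere in the genome the medians were 0.04 and 0.16. Of these 343, 4.66% were lower and 15.5% higher without overlap, so that a larger share higher than lower was not particular to the array. At an unadjusted p under 0.05, 0.875% of them were lower and 3.5% higher.

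Gm13157 (Zfp984) had the lowest log2 fold change of the 251 members. It was measured at 2.22, 2.93 and 3.17 FPKM in wild-type and at 0.511, 0.352 and 0.530 FPKM in Plekhg5-/- nerves. Its mean was 5.97-fold lower (log2FC -1.36 ± 0.17 SE, limma adjusted p = 0.187), and over the 19 alternatives the adjusted p ranged from 0.0444, with array weights, to 0.892. Of its read-length stretches, 45.7% occurred in other genes, mostly in Gm13212, whose log2 fold change was -0.57. Gm13152 (Zfp982), which had few stretches in common with others (6.29%), had 1.94, 3.64 and 1.98 FPKM in wild-type and 0.499, 0.414 and 0.370 FPKM in Plekhg5-deficient nerves. Both genes were thus lower in each Plekhg5-deficient nerve than in any wild-type nerve, and Gm13152 was 5.90-fold lower in the mean (log2FC -1.27 ± 0.22 SE, limma adjusted p = 0.444).

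Other zinc finger genes of the array were higher. Gm13225 (Zfp990) was close to 0 in wild-type nerves, at 0.00372, 0.0226 and 0.0342 FPKM, and reached 0.481, 0.687 and 1.05 FPKM in Plekhg5-deficient nerves (log2FC 0.76 ± 0.14 SE, limma adjusted p = 0.452). It was below 0.1 FPKM in wild-type nerves and was a member through its Plekhg5-deficient level alone. Gm13248 (Zfp993) had 1.20, 1.86 and 1.62 FPKM in wild-type and 3.56, 2.90 and 4.11 FPKM in Plekhg5-deficient nerves (log2FC 0.82 ± 0.20 SE, limma adjusted p = 0.671). In Gm13248, 81.3% of the stretches occurred in other genes, mostly in Zfp991, so that its level is uncertain. Zfp991, listed as Gm13139, had a log2 fold change of 0.09. Along the array, Gm13225 and Gm13248 lie on the centromeric side of Gm13152 and Gm13157.

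**Figure D5:**
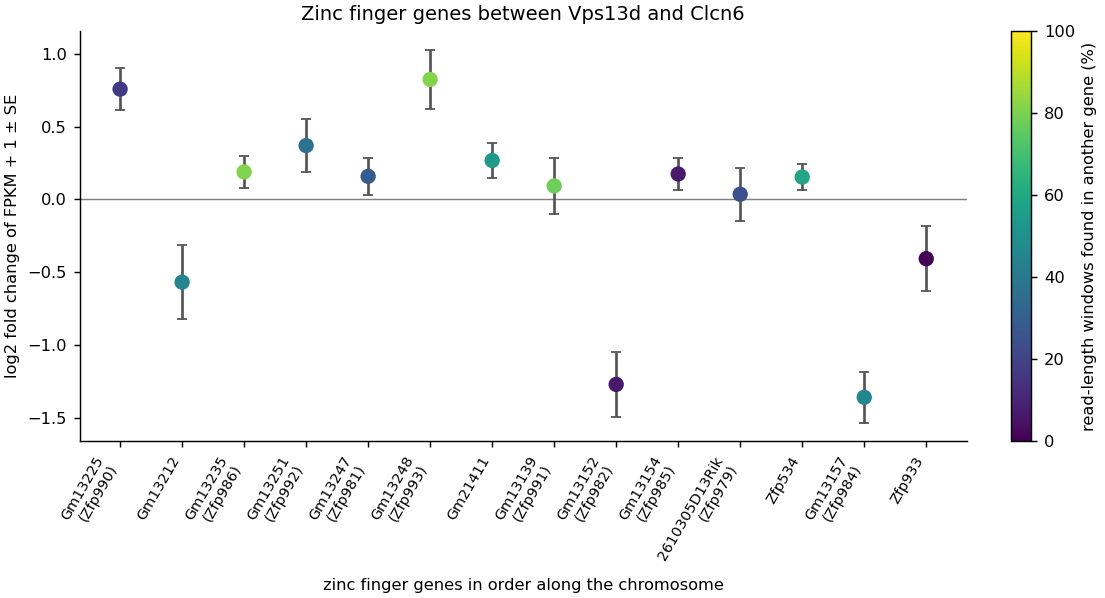
Log2 fold change of FPKM + 1 with its standard error for the 14 zinc finger genes between Vps13d and Clcn6, in order along the chromosome, with present names in brackets and colour for the share of read-length windows found in another gene (%). Gm13157 and Gm13152 lie lowest, at -1.36 and -1.27, with 45.7% and 6.29% of windows in other genes, and Gm13248 lies highest, at 0.82, with 81.3%.

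Among the remaining members of the array, the noncoding genes Gm13166 and Gm13168 were higher. The lincRNA gene Gm13166 had 0.581, 0.752 and 0.290 FPKM in wild-type and 1.58, 1.65 and 3.08 FPKM in Plekhg5-deficient nerves (log2FC 0.99). Gm13168 is a pseudogene within the Gm13166 locus, so the pair cannot be counted as separate observations, and 62.6% and 61.6% of their stretches occurred in other genes. The pseudogenes Vmn2r-ps16 and Vmn2r-ps17 were listed at 0 in all wild-type nerves. They were members through their Plekhg5-deficient level alone, so that they could only be higher. Every stretch of each occurred in another gene. The pseudogene Gm13226, which had the highest level of the array, was measured at 170 ± 58.8 FPKM in wild-type and 137 ± 25.1 in Plekhg5-deficient nerves (SD, n = 3 each).

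Farther towards the centromere, Pramel4 and Gm13102 were listed at 0 in all 3 Plekhg5-deficient nerves. The PRAME family is known from germ cells and tumors. Pramel4 had 0.430, 0.425 and 0.268 FPKM in wild-type nerves, and Gm13102 had 0.425, 0.486 and 0.268 FPKM. Both were members through their wild-type level alone, so that they could only be lower. Since 94.4% of the stretches of Gm13102 occurred in Pramel4, their reads cannot be told apart, and the pair stands for 1 observation. They belong to a stretch of 11 members from Lrrc38 to Dhrs3, between 7.28 and 8.68 Mb away. Of the 11, 7 were below 0, against 48.9% of all genes. Beside the long gene Vps13d, with a log2 fold change of -0.02, the tables hold a second short row under that symbol, which was not matched to the later annotation and had 3.70 ± 1.10 FPKM in wild-type and 5.57 ± 0.195 in Plekhg5-deficient nerves (SD, n = 3 each).

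Among genes of the extracellular matrix and cell surface, 8 of 10 listed members were below 0, against 48.9% of all genes, and the list was chosen with earlier results of these data known. At an unadjusted p under 0.05, 3 were lower and 1 was higher, against 2.69% and 2.41% of all genes. Their median log2 fold change was -0.30, against 0.01 over all genes. Pdpn, which encodes podoplanin, a membrane glycoprotein of lymphatic endothelium and stromal cells, had 31.0, 32.8 and 37.3 FPKM in wild-type and 16.3, 15.7 and 14.6 FPKM in Plekhg5-deficient nerves. The libraries of each genotype were close together and far from the others, and the mean was 2.17-fold lower (log2FC -1.07 ± 0.15 SE, limma adjusted p = 0.251). Pdpn had no read-length stretch in another gene. It was among the genes that the study lists as changed in these libraries, as were Gm13157 and Rbp7, so their direction is no independent evidence.

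The other matrix members that were lower at an unadjusted p under 0.05 lie on the telomeric side. Mmp23, a membrane-anchored matrix metalloproteinase, had 4.78, 6.75 and 7.77 FPKM in wild-type and 4.61, 2.64 and 4.06 FPKM in Plekhg5-deficient nerves (log2FC -0.64 ± 0.26 SE). Megf6, a secreted protein with repeats of epidermal growth factor type, had 0.448, 0.407 and 1.29 FPKM in wild-type and 0.0650, 0.135 and 0.236 FPKM in Plekhg5-deficient nerves (log2FC -0.55 ± 0.21 SE). Mmp23 nearly met between genotypes, and Megf6 was low in both. The most abundant member of the list, Mxra8, overlapped between genotypes, with 129 ± 27.6 FPKM in wild-type and 107 ± 9.37 in Plekhg5-deficient nerves (SD, n = 3 each). Agrn, the agrin of basement membranes and nerve-muscle synapses, differed by less than its spread, with wild-type 14.7, 22.2 and 11.1 FPKM and Plekhg5-deficient 17.2, 18.1 and 10.8 FPKM.

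Angptl7 was the only member of this list that was higher at an unadjusted p under 0.05. It lies among the higher genes between 3 and 4 Mb away on the centromeric side. Angptl7, a secreted angiopoietin-like protein, had 44.6, 58.5 and 98.9 FPKM in wild-type and 190, 109 and 122 FPKM in Plekhg5-deficient nerves. The highest wild-type and the lowest Plekhg5-deficient library were close, and the mean was 2.08-fold higher (log2FC 1.08 ± 0.35 SE, limma adjusted p = 0.893). Its locus overlaps that of Mtor. Fbxo6, the recognition subunit of a ubiquitin ligase for glycoproteins, had 28.3, 26.6 and 34.4 FPKM in wild-type and 43.8, 50.03 and 66.6 FPKM in Plekhg5-deficient nerves and was 1.797-fold higher (log2FC 0.81 ± 0.21 SE, limma adjusted p = 0.722).

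Masp2, of the same step, encodes a serine protease of the lectin pathway of complement. It was measured at 0.331, 0.157 and 0.0901 FPKM in wild-type and at 1.63, 1.61 and 1.04 FPKM in Plekhg5-/- nerves (log2FC 1.02 ± 0.16 SE, limma adjusted p = 0.334). Its locus overlaps that of Tardbp, in whose transcripts 51.8% of its stretches occurred. Tardbp, which encodes a protein that binds RNA, had 21.3, 17.5 and 14.9 FPKM in wild-type and 21.6, 19.95 and 26.1 FPKM in Plekhg5-deficient nerves. How reads were divided between the pair was not tested.

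Gm13171 had the largest log2 fold change of the members. This processed pseudogene of 3.39 Mb distance on the telomeric side was measured at 0.4996, 0.446 and 0.117 FPKM in wild-type and at 6.35, 10.5 and 17.4 FPKM in Plekhg5-/- nerves. Every Plekhg5-deficient library was far above every wild-type library, and the mean was 32.2-fold higher (log2FC 3.11 ± 0.35 SE, limma adjusted p = 0.120). Its limma adjusted p was 0.0444 with array weights and 0.0443 with FPKM as deposited, and it ranged up to 0.892 over the 19 alternatives. None of its 326 read-length stretches occurred in another annotated transcript, but it lies within the locus of Gnb1, a G protein subunit on the other strand. Gnb1 itself had 133 ± 31.2 FPKM in wild-type and 153 ± 44.5 in Plekhg5-deficient nerves (SD, n = 3 each). Of 50 processed pseudogenes among the members, Gm13171 and Gm13168 were the 2 (4%) at an unadjusted p under 0.05. The shares were 3.75% of 1891 processed pseudogenes on other chromosomes and 5.11% of all genes. The 50 had a median log2FC of -0.02.

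Rbp7, a retinoid-binding protein of fat tissue and its vessels, was the other member with a log2 fold change above 3. It had 3.67, 3.02 and 2.06 FPKM in wild-type and 24.9, 10.4 and 114 FPKM in Plekhg5-deficient nerves. The groups did not overlap, but the Plekhg5-deficient libraries differed more than 10-fold among themselves (log2FC 3.07 ± 0.78 SE, limma adjusted p = 0.681). Adipocyte markers summed to between 2499.9 and 3181 FPKM in wild-type nerves and to 2622, 948 and 6733 FPKM in Plekhg5-deficient nerves 2, 3 and 5. How far fat tissue enters this difference was not tested.

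Of 11 listed members of retinoid, sugar and fatty acid metabolism, Rbp7 was the only one at an unadjusted p under 0.05, against 5.11% of all genes. Of the 11, 9 were below 0, against 48.9% of all genes. Eno1, the enolase of glycolysis, had 118, 89.8 and 53.3 FPKM in wild-type and 47.0, 47.5 and 67.3 FPKM in Plekhg5-deficient nerves. Dhrs3, a reductase of retinoids, had 79.3 ± 6.50 and 69.3 ± 28.4 FPKM (SD, n = 3 each). Both genes overlapped between genotypes.

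All 7 receptors of the tumor necrosis factor superfamily in the region had a log2 fold change below 0, against 48.9% of all genes and 64.3% of 14 other genes named Tnfrsf, and 5 of the 7 without wild-type nerve 5. They do not sit together but lie from 6.83 Mb on the centromeric side to 3.91 Mb on the telomeric side. Their median was -0.33, and Tnfrsf25 was the only one at an unadjusted p under 0.05, against 5.11% of all genes. Tnfrsf25, Tnfrsf9 and Tnfrsf8 were lower without overlap, against 5.88% of all genes. These 3 were below 0.1 FPKM in Plekhg5-deficient nerves and were members through their wild-type level alone, so that they could only be lower. Over the 14 other Tnfrsf genes the median was -0.09. Tnfrsf9, an activation marker of T-cells, had 0.120, 0.0805 and 0.681 FPKM in wild-type and 0, 0.0339 and 0 FPKM in Plekhg5-deficient nerves. Tnfrsf4, also of activated T-cells, had 1.21, 0.451 and 6.16 FPKM in wild-type and 0.959, 1.66 and 1.83 FPKM in Plekhg5-deficient nerves. Tnfrsf18 had 3.89 FPKM in wild-type nerve 5 and 0.488 to 1.48 FPKM elsewhere.

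Tnfrsf25, Tnfrsf9, Tnfrsf4, Tnfrsf18 and Tnfrsf14 were thus each highest in wild-type nerve 5, the library with the highest T-cell and B-cell markers, and the part of these cells was not tested. Without that library the log2 fold changes of Tnfrsf4 and Tnfrsf18 turned to 0.45 and 0.40, that of Tnfrsf25 was -0.93, and the median of the 7 was -0.10. Tnfrsf1b, which is widespread in immune and endothelial cells, was highest in Plekhg5-deficient nerve 5, at 7.04 FPKM.

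Of the other groups, 12 members for peroxisomes, mitochondria and protein quality control and 15 for kinase and small G protein signalling held none at an unadjusted p under 0.05. The 11 for RNA processing and translation also held none. Of all genes, 5.11% were at this threshold, and this share applies to every group of this paragraph. Park7, a protective protein of oxidative stress, had 101 ± 26.8 FPKM in wild-type and 87.0 ± 22.4 in Plekhg5-deficient nerves (SD, n = 3 each). Mfn2, which fuses mitochondria and is mutated in hereditary neuropathy, had 26.1 ± 5.79 and 20.1 ± 5.42 FPKM (SD, n = 3 each). The ribosomal protein gene Rpl22 had 122 ± 16.7 and 136 ± 27.4 FPKM (SD, n = 3 each). Among 11 transcription factors and chromatin proteins, Camta1 alone was at an unadjusted p under 0.05, among 9 ubiquitin ligase members Fbxo6 alone, among 15 neuronal and membrane traffic members Nphp4 alone, among 7 members listed with natriuretic peptides and striated muscle Smim1 alone, which is known from erythrocytes, and among 6 members of interferon and innate immunity Masp2 alone.

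Tprgl, a synaptic vesicle protein, had the highest level of all members, at 206 ± 29.9 FPKM in wild-type and 248 ± 60.6 in Plekhg5-deficient nerves (SD, n = 3 each). Isg15, a ubiquitin-like protein induced by interferon, had the largest negative log2 fold change among members that overlapped between genotypes, with 19.8, 7.99 and 6.37 FPKM in wild-type and 2.84, 2.95 and 9.26 FPKM in Plekhg5-deficient nerves (log2FC -1.05 ± 0.53 SE). Smim1, a small membrane protein, had 20.1, 32.3 and 29.95 FPKM in wild-type and 15.6, 19.2 and 17.4 FPKM in Plekhg5-deficient nerves (log2FC -0.61 ± 0.22 SE, limma adjusted p = 0.948). It did not overlap between genotypes and shared 15.3% of its stretches with Lrrc47, whose locus it overlaps.

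The last lower members were noncoding. 5830444B04Rik, a processed transcript, had 0.502 ± 0.144 FPKM in wild-type and 0.0612 ± 0.0793 in Plekhg5-deficient nerves (SD, n = 3 each). Gm10562, the antisense gene of Mxra8, had 0.302 ± 0.203 and 0.0282 ± 0.0488 FPKM (SD, n = 3 each). Reads of an antisense gene and of its partner cannot be told apart where strand was not used in counting. Both genes were under 0.1 FPKM in Plekhg5-deficient nerves and were members through their wild-type level alone, so that they could only be lower.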

How the data were processed

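Sequenced were poly(A) RNA libraries of 6 sciatic nerves, 3 per genotype. Per the labels and the study's methods, the authors trimmed reads with Trim Galore 0.4.0, removed the first 9 bases, mapped the rest to GRCm38 with STAR and estimated FPKM with 95% intervals with Cufflinks 2.2.1, and deposited 1 table of FPKM per library. No source used here gives counts, read depth, strand setting or annotation release, and the median half-width of the intervals of members was 22.7% to 35.9% of the FPKM.

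Libraries were scaled to each other by the median-of-ratios method (factors 0.745 to 1.12). The 21285 genes that reached a mean of 0.1 FPKM in 1 genotype or both entered a limma fit (3.58.1, R 4.3.3) of log2(FPKM + 1) on genotype, using limma's trend option, and p-values were adjusted over all of them by Benjamini and Hochberg. The fit was tested on simulated data. P-values set the difference between genotypes against the spread between animals of a genotype, which limma moderates using all genes tested. Read-length stretches are 66 bases (75 cycles less 9) of a gene's transcripts in GENCODE M21, and a stretch counts as common when it occurs in a transcript of another gene. Of the members, 233 had the same coordinates there and 131 overlap another listed gene.

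The members and gene lists were chosen with earlier results of these data known. Named genes are the 5 nearest members on each side and, per direction, the 12 of smallest unadjusted p. To these come members in the study's list of changed genes, the 2 most abundant of each list or cluster and the 3 most abundant of all. Added after their values were seen were Agrn, Fbxo2, Isg15, Kcnab2, Mfn2, Slc45a1, Snap25, Tardbp, the smaller Tnfrsf genes, Gm13139 and Gm13212. Vmn2r-ps16, Vmn2r-ps17, Trp73 and the other genes at the limits were likewise added after their values were seen. The values of 1 member that this rule takes are not reported here. As alternatives, pseudocounts of 0.1 and 0.5, 3 other filters (1 FPKM, the mean of all libraries, none), other scalings, variance settings and array weights, status OK alone, a replicate block, and leaving out each library were tried. Figures were drawn with matplotlib 3.10.9.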

Additional observations from a re-analysis of the deposited data

How the results depend on the processing

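Whether a member passed at an adjusted p under 0.05 depended on 2 settings: with FPKM as deposited 1 member (Gm13171) was higher, and with array weights 1 was lower (Gm13157) and 1 higher (Gm13171). Array weights also gave 23 lower and 22 higher members at an unadjusted p under 0.05, of them 4 and 9 between Vps13d and Clcn6, a minimum of 1 FPKM gave 7 lower members, with 2 higher in that stretch, and no filter gave 18 higher, with 4 lower and 10 higher in the stretch. Without both libraries numbered 5, chosen after seeing the data, 19 were lower, 4 of them in the stretch. Members lower without overlap numbered 33 with FPKM as deposited, 10 with a minimum of 1 FPKM (13 higher), and 63 lower and 50 higher without both libraries numbered 5. Leaving out each library in turn gave 30 to 45 lower and 28 to 40 higher members without overlap, since fewer libraries have to be apart, 10 to 18 lower and 9 to 14 higher at an unadjusted p under 0.05, and 2 to 5 lower and 3 to 5 higher in the stretch (5 lower without Plekhg5-deficient replicate 5 or wild-type replicate 2); most were lower without Plekhg5-deficient replicate 5 (45). Median log2 fold changes of members stayed between -0.05 and -0.02 there, and at an adjusted p 0 were called. These counts are given without the share of all genes under the same setting. Only the main fit's share at an unadjusted p under 0.05, 5.11% of all genes, is given here. A higher or lower count under a setting is thus no result about the members.

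Of 55 named genes, 39 kept their sign under all 19 alternatives, and 42 of 1035 fits reversed. With FPKM as deposited, log2 fold changes turned to -0.12 for Clstn1, -0.0583 for Fam132a, -0.0214 for Rpl22, -0.0139 for Rps19-ps3, -0.0938 for Ube4b, and with array weights to 0.0463 for Acot7 and -0.15 for Ube4b. The numbers 2 and 5 occur in both genotypes, and deviations of same-numbered animals correlated at 0.07 and 0.58, but nothing in the labels pairs them. With a replicate block over these numbers no count of calls moved by over 1.5 times, and Aurkaip1 turned to -0.0981, Dhrs3 turned to 0.053, Ube4b turned to -0.00312, Zbtb48 turned to 0.0128. Without both libraries numbered 5, the values were 0.21 for Acot7, -0.0318 for Fam132a, 0.0629 for Gm13077, -0.12 for Klhl21, 0.36 for Tnfrsf4, -0.0862 for Ube4b. When single libraries were left out, values that changed sign ranged from -0.0839 to 0.28 for Clstn1, -0.11 to 0.0355 for Gm13077, -0.0962 to 0.81 for Gm13080, -0.25 to 0.23 for Ube4b, -0.52 to 0.13 for 2610002J02Rik, -0.93 to 1.06 for Acot7, -0.0197 to 0.16 for Fam132a, -0.0628 to 0.36 for Klhl21, -0.0169 to 0.24 for Rpl22, -0.22 to 0.66 for Rps19-ps3, -0.0328 to 0.43 for Aurkaip1, -0.43 to 0.00355 for Espn, -0.0254 to 0.44 for Gnb1, -0.70 to 0.45 for Tnfrsf4.

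The causes of these changes were not tested. The tables hold no counts, so that the depth behind a value is known from the Cufflinks intervals alone, and low members rest on few reads.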
